A study of Saccharomyces cerevisiae with 13 samples.

Results

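Furfural is an aldehyde formed when sugars of plant biomass are heated in acid, and it inhibits the growth of yeast. Saccharomyces cerevisiae reduces it to the less toxic furfuryl alcohol with reductases that draw on NADPH or NADH, and cells under furfural also meet oxidative damage and damaged proteins. The comparison described here was made inside 1 strain, TMB3400-FT30-3, called FT30-3 below, which was obtained by adapting its parent TMB3400 to high furfural. It sets the highest furfural level of the series, 36 mM in the feed (3 arrays), against 25 mM (2 arrays), so it uses 5 of the 13 arrays. All cultures were glucose-limited, micro-aerobic chemostats, and all received furfural, so neither group is a furfural-free control. TMB3400 washed out at 36 mM according to the labels, so the series has no parent group at that level and the difference between 36 and 25 mM cannot be set against the parent. FT30-3 at 15 mM (n = 3) and TMB3400 at 15 mM (n = 2) and 25 mM (n = 3) were used for the estimate of the spread and as values beside the result. The labels give the furfural in the feed, not in the vessel, and do not say whether FT30-3 is 1 clone. The design text calls the replicates biological without saying what was separate.

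In a glucose-limited chemostat, yeast grows at a rate set by the feed and holds sugar at a low level, a state in which glucose repression is partly lifted. Genes for using acetate, lactate and fatty acids, for stress protection and for scavenging nutrients are then often expressed, and glucose-repressed genes of this kind are controlled by activators such as Cat8, Sip4 and Adr1. Iron uptake through siderophores, nitrogen uptake and sulfate uptake are each governed by separate regulators that respond to the nutrient inside the cell.

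Array intensities were taken on a linear scale from the deposited table, and each array's median over S. cerevisiae probe sets was set to a common value before testing. The deposited medians were 1596 to 1663 on the 5 arrays, and background was read from probe sets for another yeast, S. pombe, whose 95th percentile was 31.2 to 36.8. The 99th percentile of genes was 14687 to 15234 and the brightest gene 18352 to 19564, so genes above about 14687 sit close to the top of the range. Values are given as deposited, in the order of the replicate numbers. A log2 change is the mean at 36 mM minus the mean at 25 mM of log2(intensity + 1) ± its standard error, from limma fitted to all 13 arrays, and "called" means a Benjamini-Hochberg adjusted p under 0.05 over all S. cerevisiae probe sets. Because the arrays average over all cells of a culture, fewer expressing cells and less RNA per cell cannot be told apart.

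Replicate 1 at 36 mM stood apart from the other arrays of its group. Its log2 values correlated with replicates 2 and 3 at r = 0.969 and 0.966, against 0.995 between replicates 2 and 3 and 0.985 between the 25 mM arrays. It differed more than 2-fold from the mean of replicates 2 and 3 in 221 genes, 216 of them lower and 5 higher, whereas replicates 2 and 3 differed that much in 23 genes and the 25 mM arrays in 54. The difference went with gene length: the median log2 difference of replicate 1 from the other 36 mM arrays was -0.49 in 235 genes under 300 bases, -0.28 from 300 to under 600 bases, 0.04 from there to under 1200, 0.17 from there to under 2400 and 0.23 in 825 genes of 2400 bases or more. Over the same length classes the median change from 25 to 36 mM ran from -0.15 to 0.06 with all arrays and from 0.00 to 0.02 without that array. The 25 mM arrays also differed with length, replicate 1 minus replicate 2 ranging from -0.13 to 0.09 over the classes. For named genes called with all arrays, a call that ended without replicate 1 at 36 mM is given beside them. Counts of calls without that array are given for all genes, for the test of steps and for most lists with calls. Where no such value is given, its part is not described. A gene whose result depended on that array is HSP26, a small heat shock protein chosen here after its values were seen. It had intensities of 1258, 5750.0 and 5162 at 36 mM and 1307 and 1047 at 25 mM. Its change was 1.48 ± 0.55 (adjusted p = 0.139) with all arrays and 2.19 (adjusted p = 0.00345) without replicate 1 at 36 mM.

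**Figure D1:**
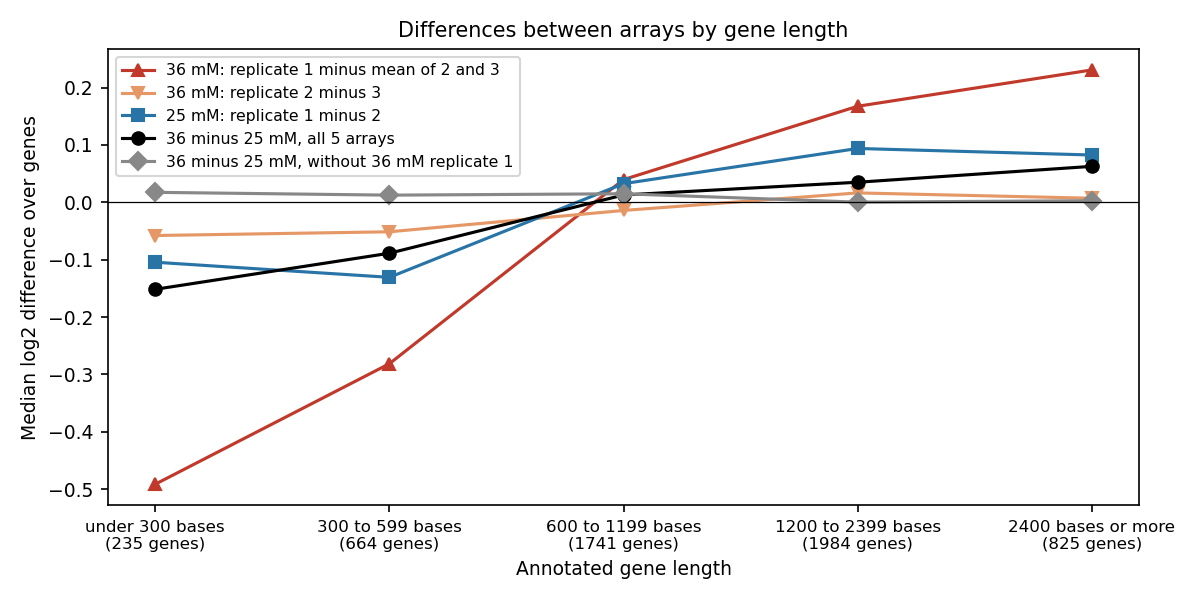
Median log2 difference between arrays (vertical axis) for genes grouped by annotated length (horizontal axis), for pairs of replicates and for the change from 25 to 36 mM with and without replicate 1 at 36 mM. The line for replicate 1 against replicates 2 and 3 climbs from -0.49 to 0.23, while the change without that array stays between 0.00 and 0.02.

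From 25 to 36 mM, 388 of 5449 genes were called (7.12%), 185 higher (3.4%) and 203 lower (3.73%). Genes for gluconeogenesis, the glyoxylate cycle and acetate and lactate use formed the group with the highest share of lower calls among the lists examined, followed by general stress genes. Siderophore transporters had the highest share of higher calls. Over all 5449 genes the median was 0.01. At an unadjusted p under 0.05 there were 1226 genes (22.5%). Of 1746 probe sets for S. pombe, whose transcripts are absent from these cultures, 86 (4.93%) were called in a fit of their own. Of the 86, 45 were higher and 41 lower, and 276 of the 1746 (15.8%) had an unadjusted p under 0.05. A share of calls near 5% is thus also seen in probe sets whose own transcript is absent. When a filter on dim probe sets left 63 of them, 19 were called, so these calls were not limited to the dimmest probe sets. The 36 mM arrays all lay above both 25 mM arrays in 993 genes (18.2%) and all below them in 869 (15.9%). The number of calls depended on single arrays: it was 105 without 25 mM replicate 1, 218 without 25 mM replicate 2, and 256 and 252 without 36 mM replicates 2 and 3. Without replicate 1 at 36 mM it was 417 (7.65%), 191 higher (3.51%) and 226 lower (4.15%), of which 307 were among the 388. On the values as deposited, without setting medians equal, 364 genes were called, of which 222 were higher and 142 lower, and the median change was 0.05.

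**Figure D2:**
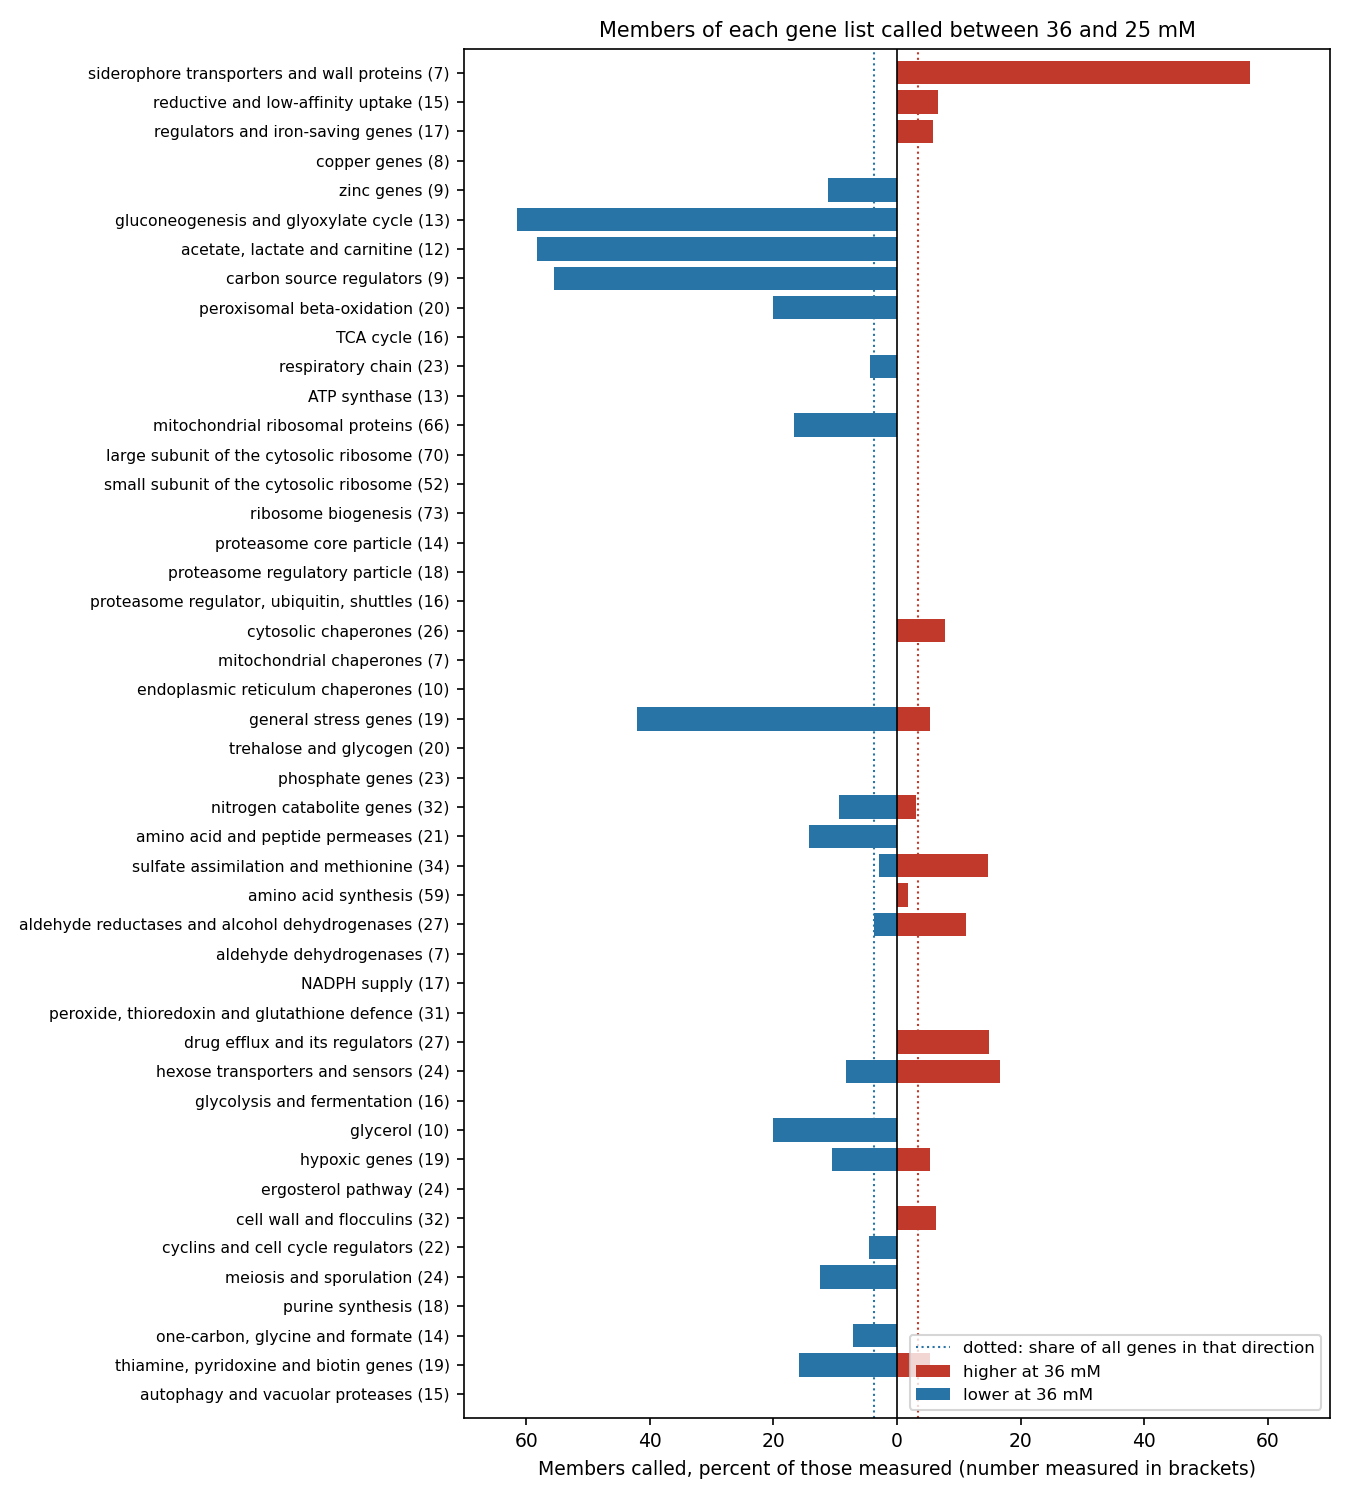
Share of the measured members of each gene list called higher (right) or lower (left) at 36 than at 25 mM in FT30-3, in percent, with the number measured in brackets and dotted lines at the shares of all genes, 3.4% and 3.73%. Lower calls are densest in the 3 lists on gluconeogenesis, acetate and lactate use and their regulators, and higher calls in the siderophore list.

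Many genes for growth on carbon sources other than glucose fell. Of 34 measured, 20 were called lower and 0 higher in limma (2 higher and 22 lower at an unadjusted p under 0.05), with a median log2 change of -0.63, against 3.73% lower calls and a median of 0.01 over all genes. The enzymes of gluconeogenesis and the glyoxylate cycle gave 8 of 13 lower, the genes for acetate, lactate and carnitine 7 of 12, and the regulators 5 of 9. FBP1, which encodes fructose bisphosphatase of gluconeogenesis, had intensities of 903, 1999 and 1531 at 36 mM and 4538 and 4606 at 25 mM. All 36 mM arrays were below both 25 mM arrays, replicate 1 lowest (log2 change -1.74 ± 0.27, adjusted p = 0.00346), and at 15 mM the level was 4614 ± 549.8 (SD, n = 3). MLS1, malate synthase of the glyoxylate cycle, read 467, 848 and 609 at 36 mM and 1709 and 2619 at 25 mM (log2 change -1.80 ± 0.30, adjusted p = 0.006). IDP2, the cytosolic NADP-dependent isocitrate dehydrogenase, read 2908, 3884 and 3295 at 36 mM and 7019.7 and 6822 at 25 mM (log2 change -1.09 ± 0.15, adjusted p = 0.00216). In both genes the groups did not overlap. MDH2, the cytosolic malate dehydrogenase, read 3959, 3986 and 3465 at 36 mM and 6328 and 6200.0 at 25 mM (log2 change -0.76 ± 0.10, adjusted p = 0.00143). SFC1, which exchanges succinate for fumarate across the mitochondrial membrane, read 1905, 2678 and 2754 at 36 mM and 5394 and 5044 at 25 mM (log2 change -1.15 ± 0.21, adjusted p = 0.00982). Neither gene's 36 mM arrays reached the lower of the 25 mM arrays. ICL1, isocitrate lyase, read 3813, 4393 and 2787 at 36 mM and 5589 and 6951 at 25 mM (log2 change -0.83 ± 0.20, adjusted p = 0.0326). ICL1 missed the threshold without 36 mM replicate 3 (adjusted p = 0.0734). SFC1 and ICL1 missed the threshold without 25 mM replicate 1 (adjusted p = 0.0885 and 0.0879), and MLS1 and ICL1 without replicate 2 (adjusted p = 0.0556 and 0.173).

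Genes for uptake and oxidation of acids were among the calls. ATO2, a member of the acetate and ammonium transporter family, read 1926, 2094 and 2468 at 36 mM and 5804 and 5124 at 25 mM (log2 change -1.38 ± 0.14, adjusted p = 0.000197). Its relatives were lower as well: ADY2, the acetate transporter, read 2591, 2798 and 1963 at 36 mM and 5560.5 and 5619.6 at 25 mM (log2 change -1.24 ± 0.17, adjusted p = 0.00216). ATO3 read 2759.9, 2797 and 2126 at 36 mM and 5819.8 and 4997 at 25 mM (log2 change -1.12 ± 0.15, adjusted p = 0.0017). In all 3 genes the groups were apart by more than the spread within either group. CYB2, the mitochondrial lactate dehydrogenase, read 2558, 2592 and 2308 at 36 mM and 7939.5 and 5122 at 25 mM (log2 change -1.40 ± 0.19, adjusted p = 0.00173). The 25 mM arrays differed from each other here, the second being the lower, yet both stood above every 36 mM array. JEN1, the lactate and pyruvate permease, was bright in all arrays and read 8942, 10367 and 9185 at 36 mM and 12806 and 12469.7 at 25 mM (log2 change -0.45 ± 0.09, adjusted p = 0.0134). Among the regulators, the zinc-cluster activator CAT8 read 1521, 1301 and 1319 at 36 mM and 2259 and 1712 at 25 mM (log2 change -0.55 ± 0.14, adjusted p = 0.0421). SIP4, a related activator, read 222, 356 and 257 at 36 mM and 506 and 659 at 25 mM (log2 change -1.11 ± 0.25, adjusted p = 0.0254). ADR1, the activator of alcohol and fatty acid genes, read 1166, 1118 and 910.5 at 36 mM and 1662 and 1565 at 25 mM (log2 change -0.64 ± 0.13, adjusted p = 0.016). Each of these 3 regulators was lower in all 36 mM arrays. Of the 9 regulators measured, 7 had a log2 change below 0 and 2 above it, the highest at 0.88. All 36 mM arrays lay below both 25 mM arrays in 6 of the 9 and above them in 1. Over all genes those shares were 15.9% and 18.2%. SIP4 missed the threshold without 36 mM replicate 1 (adjusted p = 0.052), and CAT8 without replicate 2 (adjusted p = 0.111), and CAT8 and SIP4 without replicate 3 (adjusted p = 0.0911 and 0.0591). JEN1, CAT8, SIP4 and ADR1 missed the threshold without 25 mM replicate 1 (adjusted p = 0.101, 0.3, 0.0738 and 0.129), and JEN1, SIP4 and ADR1 without replicate 2 (adjusted p = 0.0545, 0.143 and 0.058). The log2 change of CAT8 was -0.35 without 25 mM replicate 1. For the 34 genes together, without 36 mM replicates 1, 2 and 3 in turn the count was 14, 16 and 12, and without 25 mM replicates 1 and 2 it was 8 and 10.

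**Figure D3:**
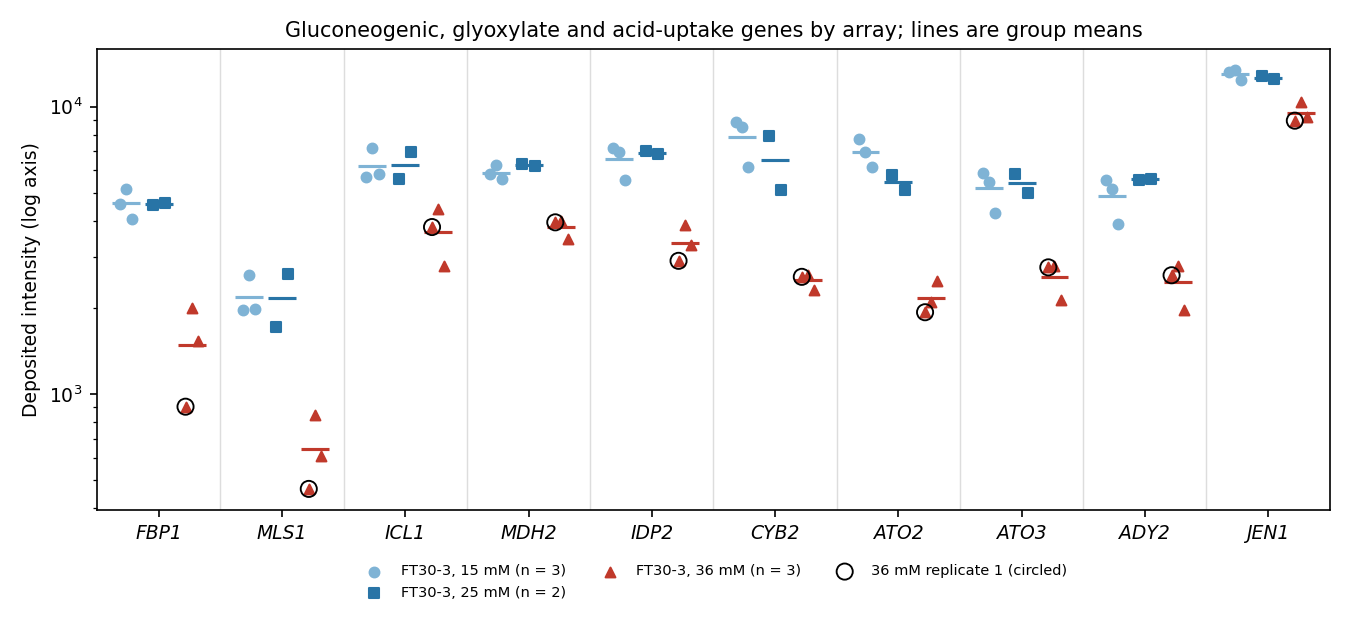
Deposited intensity (log axis) of 10 genes for gluconeogenesis, the glyoxylate cycle and acid uptake in each FT30-3 array at 15, 25 and 36 mM, with lines at group means and replicate 1 at 36 mM circled. The 36 mM points lie below both 25 mM points in all 10 genes, for FBP1 at 903, 1999 and 1531 against 4538 and 4606.

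Fatty acid oxidation in peroxisomes gave 4 of 20 genes called lower (3.73% over all genes) and 0 higher, with a median of -0.39. Without 36 mM replicates 1, 2 and 3 in turn the count was 5, 4 and 3, and without 25 mM replicates 1 and 2 it was 0 and 4. POT1, the thiolase that completes each round of the pathway, read 507, 689 and 767 at 36 mM and 1588 and 1189 at 25 mM (log2 change -1.13 ± 0.23, adjusted p = 0.0153). CTA1, peroxisomal catalase, read 373, 445 and 379 at 36 mM and 1309 and 854 at 25 mM (log2 change -1.44 ± 0.31, adjusted p = 0.0211). For both, the 36 mM arrays lay below the 25 mM arrays, and the 25 mM replicates differed, the first being higher. POX1, the acyl-CoA oxidase of the first step, read 383, 339.8 and 375 at 36 mM and 580.0 and 515 at 25 mM (log2 change -0.62 ± 0.12, adjusted p = 0.0144), and its groups did not overlap. CTA1 missed the threshold without 36 mM replicate 3 (adjusted p = 0.0509). POT1, CTA1 and POX1 missed the threshold without 25 mM replicate 1 (adjusted p = 0.157, 0.184 and 0.135). The tricarboxylic acid cycle had 0 of 16 genes called by limma (0 higher and 2 lower at an unadjusted p under 0.05). Of 23 respiratory chain genes, 1 was called, NDE2, an external NADH dehydrogenase of mitochondria, which read 662, 861 and 929.5 at 36 mM and 2048 and 1472 at 25 mM (log2 change -1.14 ± 0.25, adjusted p = 0.0212); it was not called without 25 mM replicate 1 (adjusted p = 0.184). ATP synthase had 0 of 13 called (0 higher and 1 lower at an unadjusted p under 0.05).

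Some mitochondrial ribosomal protein genes fell, each by a small amount. Of 66 measured, 11 were called lower and 0 higher, against 3.73% of all genes called lower, and the median log2 change was -0.35. At an unadjusted p under 0.05, 32 were lower, against 584 of all 5449 genes (10.7%). RSM25, a protein of the small subunit, read 1595, 1652 and 1581 at 36 mM and 2160.0 and 2379 at 25 mM (log2 change -0.53 ± 0.09, adjusted p = 0.00754). RSM7, of the same subunit, read 3347, 3172 and 3395 at 36 mM and 4412 and 4377 at 25 mM (log2 change -0.45 ± 0.09, adjusted p = 0.016). Both were lower in all 36 mM arrays, which spread little. MRPL10, of the large subunit, read 4044, 3999.6 and 4131 at 36 mM and 5083 and 5261 at 25 mM (log2 change -0.39 ± 0.09, adjusted p = 0.0354). MRPL10 missed the threshold without 36 mM replicate 2 (adjusted p = 0.0917), and MRPL10 without replicate 3 (adjusted p = 0.0577). RSM7 and MRPL10 missed the threshold without 25 mM replicate 1 (adjusted p = 0.104 and 0.14), and RSM25, RSM7 and MRPL10 without replicate 2 (adjusted p = 0.0598, 0.0695 and 0.142). These genes had a median length of 716 bases, against 1236 over all genes. Replicate 1 at 36 mM read low under 600 bases but not from 600 to under 1200 (0.04). Over this list its median difference from replicates 2 and 3 was -0.12, and without it the median change was -0.27. Without 36 mM replicates 1, 2 and 3 in turn the count of calls was 17, 2 and 4, and most calls were lost without either 25 mM array. With the trend on gene length removed from each array the count was 7. Proteins of the cytosolic ribosome gave 0 of 122 called by limma and 0 at an unadjusted p under 0.05, with a median of 0.02. Ribosome biogenesis gave 0 of 73 called (6 higher and 3 lower at an unadjusted p under 0.05), with a median of 0.08, and without 25 mM replicate 2 it gave 3 higher calls and without 36 mM replicate 1 it gave 1 lower.

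Several general stress genes fell. Of 19 measured, 8 were called lower and 1 higher, against 3.73% and 3.4% of all genes. The median was -0.43 with all arrays and -0.16 without 36 mM replicate 1. PHM7, a membrane protein gene of unsettled function, had the largest fall of all genes called: it read 201, 233 and 334 at 36 mM and 2002 and 2018 at 25 mM (log2 change -3.04 ± 0.44, adjusted p = 0.00244). Its 36 mM arrays were all below the 25 mM arrays, and the 15 mM arrays were 4821, 2215 and 2317. AQY1, the water channel known from spores, read 140.5, 208 and 340.3 at 36 mM and 1569 and 1364 at 25 mM (log2 change -2.80 ± 0.47, adjusted p = 0.006). AQY2, the second water channel, went the other way and read 663, 784 and 739 at 36 mM and 300.3 and 235 at 25 mM (log2 change 1.41 ± 0.19, adjusted p = 0.0017). Neither pair of groups overlapped. GAD1, glutamate decarboxylase, read 2315, 2329 and 2447 at 36 mM and 4754 and 3854 at 25 mM (log2 change -0.89 ± 0.12, adjusted p = 0.0021). CTT1, cytosolic catalase, added after its values were seen, read 4168, 4359 and 5081 at 36 mM and 8152 and 6634 at 25 mM (log2 change -0.74 ± 0.18, adjusted p = 0.0362). SPI1, a cell wall protein induced in stationary phase, read 3961, 4207 and 4259 at 36 mM and 6926 and 5696 at 25 mM (log2 change -0.64 ± 0.12, adjusted p = 0.00902). In these 3 genes the lower 25 mM array still exceeded every 36 mM array. CTT1 missed the threshold without 36 mM replicate 1 (adjusted p = 0.0694), and CTT1 without replicate 2 (adjusted p = 0.093). AQY1, CTT1 and SPI1 missed the threshold without 25 mM replicate 1 (adjusted p = 0.0619, 0.241 and 0.112), and CTT1 without replicate 2 (adjusted p = 0.0658). For the list, without 36 mM replicates 1, 2 and 3 in turn the count was 6, 6 and 8, and without 25 mM replicates 1 and 2 it was 2 and 6. Trehalose and glycogen genes gave 0 of 20 called by limma (0 higher and 3 lower at an unadjusted p under 0.05). Among them GDB1, the glycogen debranching enzyme, had a log2 change of -0.37 (adjusted p = 0.112) with all arrays and was called without 36 mM replicate 1 (log2 change -0.46, adjusted p = 0.0442).

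Some uptake systems for nitrogen and sulfur fell. Of 53 nitrogen genes, 6 were called lower and 1 higher, against 3.73% and 3.4% of all genes, with a median of -0.15; 3 of the lower ones were among 21 amino acid and peptide permeases. GAP1, the general amino acid permease, read 486, 568 and 516 at 36 mM and 4531 and 1954 at 25 mM (log2 change -2.54 ± 0.38, adjusted p = 0.00294). The 25 mM arrays differed more than 2-fold from each other, and both were well above the 36 mM arrays. PUT4, the proline permease, read 1647, 1869.9 and 1497 at 36 mM and 5676 and 3792 at 25 mM (log2 change -1.51 ± 0.27, adjusted p = 0.0076). DIP5, which carries glutamate and aspartate, read 4582, 4386 and 4406 at 36 mM and 8666 and 7068 at 25 mM (log2 change -0.85 ± 0.12, adjusted p = 0.00177). Their groups did not overlap either. SUL1, a high-affinity sulfate permease, read 167, 537 and 524 at 36 mM and 1695 and 1125 at 25 mM (log2 change -1.97 ± 0.49, adjusted p = 0.036), and replicate 1 was the lowest. Among 34 genes of sulfate assimilation and methionine synthesis, 5 were called higher (3.4% over all genes) and SUL1 alone lower. MET16, which reduces activated sulfate, read 3467, 4038 and 4037 at 36 mM and 1849 and 2617 at 25 mM (log2 change 0.77 ± 0.20, adjusted p = 0.0406). MET2, which starts the branch to homocysteine, read 5847, 5052 and 4796 at 36 mM and 3308 and 3684 at 25 mM (log2 change 0.54 ± 0.12, adjusted p = 0.0263). For these 2 genes every 36 mM array was above both 25 mM arrays. MET16 and MET2 missed the threshold without 36 mM replicate 2 (adjusted p = 0.101 and 0.0516), and MET16 without replicate 3 (adjusted p = 0.092). PUT4, SUL1, MET16 and MET2 missed the threshold without 25 mM replicate 1 (adjusted p = 0.1, 0.23, 0.289 and 0.188), and SUL1 and MET2 without replicate 2 (adjusted p = 0.078 and 0.0581). The higher nitrogen call was lost whichever 1 of the 5 arrays was left out. For the lower nitrogen genes, without 36 mM replicates 1, 2 and 3 in turn the count was 5, 5 and 3, and without 25 mM replicates 1 and 2 it was 2 and 6. For the higher sulfur genes, without 36 mM replicates 1, 2 and 3 in turn the count was 4, 0 and 1. MET10, MET22 and CYS3, among the 5 called with all arrays, were not called without 36 mM replicate 1 (adjusted p = 0.0608, 0.0727 and 0.0804). The 4 calls of that fit thus include other genes of the list. Most higher sulfur calls were also lost without either 25 mM array. Of 59 amino acid synthesis genes, HIS6 was called, higher, at 1635, 1406 and 1277 at 36 mM and 1036 and 1031 at 25 mM (log2 change 0.43 ± 0.10, adjusted p = 0.0223); the call ended without 25 mM replicates 1 and 2 (adjusted p = 0.132 and 0.0861).

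The siderophore transporter genes ARN1, ARN2, ENB1 and SIT1 rose. These carriers bring in iron bound to small chelators, which yeast does not make itself, and they belong to the set of genes that the activator Aft1 switches on when iron is short. Of 7 siderophore transporters and wall proteins, 4 were called higher and 0 lower, against 3.4% of all genes called higher, with a median of 1.13. ARN2 read 3069.7, 2933 and 2941 at 36 mM and 701 and 1059 at 25 mM (log2 change 1.75 ± 0.18, adjusted p = 0.000197). ARN1 read 9487, 10432 and 10472 at 36 mM and 2483 and 4538 at 25 mM (log2 change 1.56 ± 0.23, adjusted p = 0.0026). ENB1, the carrier for enterobactin, read 1813, 1285 and 1229 at 36 mM and 373 and 511 at 25 mM (log2 change 1.66 ± 0.22, adjusted p = 0.0017). In each of the 3 the 36 mM arrays were all higher, and the second 25 mM array was the higher of its pair. The levels at 15 mM were 494 ± 21.3 (SD, n = 3) for ARN2, 1117 ± 32.8 (SD, n = 3) for ARN1 and 181 ± 24.8 (SD, n = 3) for ENB1. SIT1, the carrier for ferrioxamine, read 5374, 5657 and 5987 at 36 mM and 1676 and 3776 at 25 mM (log2 change 1.13 ± 0.30, adjusted p = 0.0425). TIS11, an RNA-binding protein that removes messages of iron-using proteins, read 4698, 2615 and 2685 at 36 mM and 642 and 1008 at 25 mM (log2 change 1.96 ± 0.30, adjusted p = 0.0035). SMF3, which releases iron from the vacuole, read 4324, 5731 and 5506 at 36 mM and 3759 and 3218 at 25 mM (log2 change 0.53 ± 0.13, adjusted p = 0.0371). All 3 had groups that did not overlap.

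The other 32 iron genes gave 2 calls, TIS11 and SMF3. Over all 39 iron genes 6 were called higher and 0 lower, with a median of 0.23. The mannoprotein genes FIT2 and FIT3, whose products hold siderophores in the wall, were among the brightest on the arrays: FIT2 read 17349.8, 15719.9 and 16043 at 36 mM and 11688 and 14197 at 25 mM (log2 change 0.31 ± 0.17, adjusted p = 0.321). FIT3 read 14793, 14604 and 14197 at 36 mM and 11160.3 and 12761 at 25 mM (log2 change 0.25 ± 0.12, adjusted p = 0.265). Neither was called although the groups did not overlap, and part of the FIT2 values lie above the 99th percentile of the arrays. FET3, the oxidase of reductive iron uptake and chosen here after its values were seen, read 3665, 3892 and 3411 at 36 mM and 3141 and 4267 at 25 mM, and the groups overlapped (log2 change -0.04 ± 0.19, adjusted p = 0.921). FTR1, its partner permease and chosen in the same way, read 4201, 4589 and 4125 at 36 mM and 4369 and 5568 at 25 mM, also overlapping (log2 change -0.23 ± 0.12, adjusted p = 0.279). Whether the siderophore genes differed from the reductive ones was not tested. SIT1 missed the threshold without 36 mM replicate 1 (adjusted p = 0.0602), and SIT1 and SMF3 without replicate 2 (adjusted p = 0.0946 and 0.105), and SIT1 and SMF3 without replicate 3 (adjusted p = 0.0927 and 0.0919). SIT1, TIS11 and SMF3 missed the threshold without 25 mM replicate 1 (adjusted p = 0.304, 0.0559 and 0.0923), and SMF3 without replicate 2 (adjusted p = 0.189). The log2 change of SIT1 was 0.54 without 25 mM replicate 1. The log2 change of SIT1 was 1.72 without 25 mM replicate 2. For the 39 genes, without 36 mM replicates 1, 2 and 3 in turn the count was 5, 4 and 4, and without 25 mM replicates 1 and 2 it was 3 and 6.

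Cytosolic chaperones and the proteasome, which refold or remove damaged proteins, had few calls. Of 26 cytosolic chaperone genes 2 were called higher (3.4% over all genes) and 0 lower, 11 were higher at an unadjusted p under 0.05, and the median was 0.26. Over all genes 22.5% had such a p in either direction, 10.7% of all genes being lower. Without 36 mM replicate 1, 3 of the 26 were called higher. SSA2, an Hsp70 chaperone, read 7052, 4335 and 4858 at 36 mM and 1721 and 994 at 25 mM (log2 change 1.98 ± 0.29, adjusted p = 0.00256). The 36 mM arrays were all above the 25 mM arrays. SSA1, a near-identical Hsp70 gene chosen after its values were seen, read 8567, 6442 and 6958 at 36 mM and 6682 and 5332 at 25 mM, with overlapping groups (log2 change 0.25 ± 0.20, adjusted p = 0.494); probe sets for such similar genes can share signal, so the split between them is uncertain. HCH1, an activator of Hsp90, read 5436, 5655 and 6089 at 36 mM and 3361 and 3386 at 25 mM (log2 change 0.73 ± 0.11, adjusted p = 0.00262). HSP82, an Hsp90 gene added in the same way, read 6699, 4222 and 4254 at 36 mM and 3744 and 2303 at 25 mM and was not called (log2 change 0.71 ± 0.26, adjusted p = 0.133). SSA4, the heat-inducible Hsp70, read 1249, 1126 and 1354 at 36 mM and 884 and 799 at 25 mM (log2 change 0.52 ± 0.14, adjusted p = 0.0509), just outside the threshold. RPN4, the activator of proteasome genes, read 10595, 9883 and 9555 at 36 mM and 8021 and 7844 at 25 mM (log2 change 0.30 ± 0.10, adjusted p = 0.0975). For HSP82, SSA4 and RPN4 each 36 mM array was above both 25 mM arrays without passing the test. The proteasome gave 0 of 48 called by limma, with 10 higher and 1 lower at an unadjusted p under 0.05 and a median of 0.17; without 25 mM replicate 2 it gave 1 higher call and without 36 mM replicate 1 it gave 1 lower. Both SSA2 and HCH1 passed without any 1 of the 5 arrays.

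**Figure D4:**
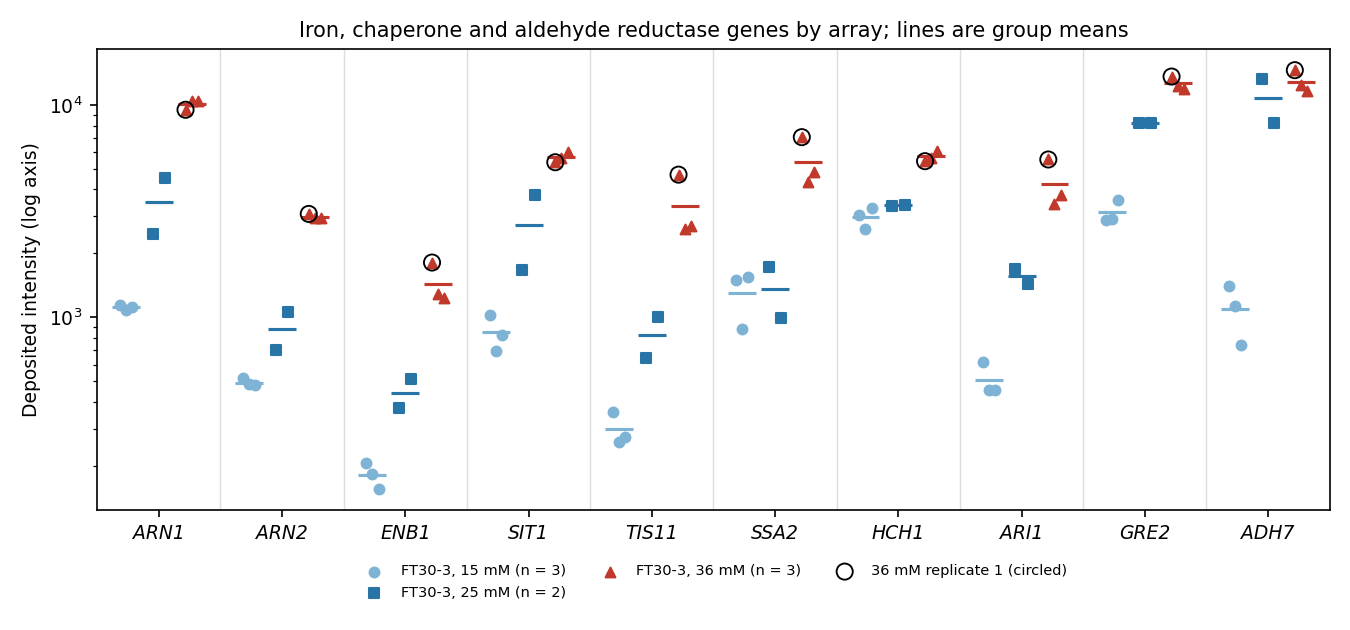
Deposited intensity (log axis) of siderophore transporter genes, TIS11, 2 chaperone genes and 3 aldehyde reductase genes in each FT30-3 array at 15, 25 and 36 mM, with lines at group means and replicate 1 at 36 mM circled. The 36 mM points lie above both 25 mM points in every gene shown other than ADH7, for which the 25 mM arrays read 13311 and 8199.9.

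The series' title concerns reduction of furfural with NADPH, and the reductases gave 3 of 27 genes called higher and 1 lower, against 3.4% and 3.73% of all genes, with a median of 0.07. The study may itself have singled out some of these genes from the same arrays, and their direction would then not count as separate evidence. ARI1, an NADPH-dependent aldehyde reductase, read 5537, 3404 and 3772 at 36 mM and 1690.3 and 1439.6 at 25 mM (log2 change 1.37 ± 0.32, adjusted p = 0.0281). GRE2, which reduces methylglyoxal and other aldehydes with NADPH, read 13598, 12331 and 11931 at 36 mM and 8213 and 8188 at 25 mM (log2 change 0.58 ± 0.12, adjusted p = 0.0184). In both, all 36 mM arrays exceeded the 25 mM arrays, and the 15 mM levels were 509 ± 94.6 (SD, n = 3) for ARI1 and 3124 ± 379.9 (SD, n = 3) for GRE2. YDR541C, a relative of both by sequence, read 464, 389.6 and 406 at 36 mM and 301 and 262 at 25 mM (log2 change 0.54 ± 0.12, adjusted p = 0.0236). ADH7, an NADPH-dependent alcohol dehydrogenase, read 14568, 12431 and 11567 at 36 mM and 13311 and 8199.9 at 25 mM, with overlapping groups (log2 change 0.26 ± 0.58, adjusted p = 0.846). Its 15 mM arrays read 1408, 1136 and 740.2, so its level was already high at 25 mM. ADH6, the related enzyme, read 11348, 9637 and 9549.5 at 36 mM and 8022 and 8512 at 25 mM (log2 change 0.26 ± 0.10, adjusted p = 0.162). OYE3, an NADPH oxidoreductase, read 12304, 13555 and 12974 at 36 mM and 9604 and 9069 at 25 mM (log2 change 0.43 ± 0.12, adjusted p = 0.0608). Both had groups that did not overlap and were not called. GRE3, aldose reductase, read 6198, 4983 and 4970.3 at 36 mM and 6262 and 4932 at 25 mM, with overlap (log2 change -0.09 ± 0.14, adjusted p = 0.767). ARI1 missed the threshold without 36 mM replicate 1 (adjusted p = 0.0604), and ARI1 and YDR541C without replicate 3 (adjusted p = 0.0525 and 0.0509). ARI1, GRE2 and YDR541C missed the threshold without 25 mM replicate 1 (adjusted p = 0.129, 0.118 and 0.0662), and ARI1, GRE2 and YDR541C without replicate 2 (adjusted p = 0.131, 0.0754 and 0.133). For the higher reductase genes, without 36 mM replicates 1, 2 and 3 in turn the count was 2, 3 and 1, and without 25 mM replicates 1 and 2 it was 0 and 0. The lower call was lost without 36 mM replicate 2 and without 25 mM replicate 1.

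NADPH supply gave 0 of 17 genes called by limma, with 4 higher and 2 lower at an unadjusted p under 0.05. ZWF1, the dehydrogenase at the head of the pentose phosphate pathway, read 13406, 10794 and 10653 at 36 mM and 10196 and 8604 at 25 mM (log2 change 0.27 ± 0.12, adjusted p = 0.222). GND1, the second NADPH-forming enzyme of that pathway, read 16460.5, 16656 and 16448 at 36 mM and 14515 and 13854 at 25 mM (log2 change 0.18 ± 0.08, adjusted p = 0.21). The 36 mM arrays were above the 25 mM arrays in both without passing the test, and GND1 lies near the top of the intensity range. ALD6, the cytosolic aldehyde dehydrogenase that makes acetate and NADPH, read 17086, 16440.3 and 15724 at 36 mM and 16459.8 and 15685 at 25 mM, with overlapping groups (log2 change -0.01 ± 0.08, adjusted p = 0.972). It is also near the top of the range. Aldehyde dehydrogenases gave 0 of 7 called (0 higher and 3 lower at an unadjusted p under 0.05), and defence by peroxidases, thioredoxin and glutathione 0 of 31 (3 higher and 2 lower). ALD4, the mitochondrial aldehyde dehydrogenase, had a log2 change of -0.26 (adjusted p = 0.149) with all arrays and was called without 36 mM replicate 1 (log2 change -0.34, adjusted p = 0.038).

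Drug efflux genes gave 4 of 27 called higher (3.4% over all genes) and 0 lower, with a median of 0.17. PDR18, an ABC transporter of the plasma membrane, read 283, 472 and 530.0 at 36 mM and 64.1 and 59.9 at 25 mM (log2 change 2.68 ± 0.26, adjusted p = 0.000193). Its 15 mM arrays read 325, 278 and 266, so the 25 mM arrays were the low ones. FLR1, an efflux pump for drugs such as fluconazole, read 1655, 1746 and 1515 at 36 mM and 956 and 800.2 at 25 mM (log2 change 0.87 ± 0.17, adjusted p = 0.0138). PDR17, a phosphatidylinositol transfer protein, read 953, 799.8 and 796 at 36 mM and 549 and 478 at 25 mM (log2 change 0.69 ± 0.10, adjusted p = 0.00256). In both genes the 36 mM arrays were all higher. RSB1, which moves sphingoid bases, read 5565, 7068 and 6987 at 36 mM and 4744 and 4028 at 25 mM (log2 change 0.54 ± 0.14, adjusted p = 0.0478). PDR5, the main efflux pump for many drugs, read 13035, 13933 and 13364 at 36 mM and 12949 and 12075 at 25 mM, with overlap (log2 change 0.07 ± 0.08, adjusted p = 0.695). RSB1 missed the threshold without 36 mM replicate 2 (adjusted p = 0.126), and RSB1 without replicate 3 (adjusted p = 0.114). FLR1 and RSB1 missed the threshold without 25 mM replicate 1 (adjusted p = 0.0511 and 0.12), and FLR1 and RSB1 without replicate 2 (adjusted p = 0.0912 and 0.227). For the list, without 36 mM replicates 1, 2 and 3 in turn the count was 5, 3 and 3, and without 25 mM replicates 1 and 2 it was 2 and 2.

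Hexose transport genes split, with 4 of 24 called higher and 2 lower, against 3.4% and 3.73% of all genes, and a median of -0.10. Some members of the HXT family are near-identical in sequence, so their probe sets may share signal and their separate values are uncertain. Which of the genes below this affects was not tested. HXT2, a high-affinity carrier, read 1045, 1220.2 and 850.2 at 36 mM and 2857 and 3369 at 25 mM (log2 change -1.63 ± 0.34, adjusted p = 0.0183). HXT15 read 5.86, 32.6 and 21.8 at 36 mM and 207 and 79.5 at 25 mM (adjusted p = 0.012). At 36 mM it was above the S. pombe background in replicate 2 alone, and only just, so no size of change is given. HXT9, linked to drug resistance, read 817, 1007 and 651 at 36 mM and 162 and 191 at 25 mM (log2 change 2.17 ± 0.19, adjusted p = 9.27e-05). HXT8 read 531, 332 and 449 at 36 mM and 155 and 128 at 25 mM (log2 change 1.56 ± 0.33, adjusted p = 0.0194). For all 4 the groups did not overlap. The remaining transporter called higher, HXT11, was not above background in either group. HXK2, the main hexokinase and a mediator of glucose repression, read 7956, 5302 and 5266 at 36 mM and 2811 and 2675 at 25 mM (log2 change 1.11 ± 0.19, adjusted p = 0.007), with replicate 1 the highest. HXT3, a low-affinity carrier chosen after its values were seen, read 4823, 5135 and 5526 at 36 mM and 5197 and 4622 at 25 mM, with overlap (log2 change 0.04 ± 0.10, adjusted p = 0.874). HXT2 missed the threshold without 36 mM replicate 3 (adjusted p = 0.0509). HXT2, HXT15, HXT8 and HXK2 missed the threshold without 25 mM replicate 1 (adjusted p = 0.0885, 0.139, 0.0889 and 0.0556), and HXT2 and HXT8 without replicate 2 (adjusted p = 0.0948 and 0.101). For the higher genes of the list, without 36 mM replicates 1, 2 and 3 in turn the count was 4, 4 and 4, and without 25 mM replicates 1 and 2 it was 1 and 3, and the lower ones were 0 and 1 in those last fits. Glycolysis and fermentation gave 0 of 16 called by limma (2 higher and 1 lower at an unadjusted p under 0.05). Both calls among 10 glycerol genes were lower (3.73% over all genes). GUT1, glycerol kinase, read 3386, 3144 and 3231 at 36 mM and 5294 and 4328 at 25 mM (log2 change -0.59 ± 0.14, adjusted p = 0.0258). GUT2, the mitochondrial glycerol phosphate dehydrogenase, read 4393, 4101 and 4121 at 36 mM and 6359 and 5029.9 at 25 mM (log2 change -0.46 ± 0.11, adjusted p = 0.0332). GUT1 and GUT2 missed the threshold without 36 mM replicate 2 (adjusted p = 0.0711 and 0.0897), and GUT1 and GUT2 without replicate 3 (adjusted p = 0.0542 and 0.0704). GUT1 and GUT2 missed the threshold without 25 mM replicate 1 (adjusted p = 0.207 and 0.258). The log2 change of GUT2 was -0.30 without 25 mM replicate 1.

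The largest rise of all genes called was that of YBR090C, an open reading frame of unknown function on chromosome II. It read 1965, 2408 and 2254 at 36 mM and 21.98 and 38.2 at 25 mM (log2 change 6.16 ± 0.32, adjusted p = 4.33e-06), and 13.6, 26.1 and 16.6 in the 15 mM arrays. All 3 arrays at 36 mM were bright, whereas the 25 and 15 mM arrays were close to background. In the parent the means were 76.9 ± 13.1 (SD, n = 3) at 25 mM and 21.4 ± 9.01 (SD, n = 2) at 15 mM. Its neighbours were not called: NHP6B, a chromatin protein gene whose frame overlaps it, read 6367, 7417 and 7502 at 36 mM and 6511 and 7618 at 25 mM (log2 change -0.03 ± 0.11, adjusted p = 0.904). TIM12, a mitochondrial import gene, read 1232, 1923 and 2019 at 36 mM and 1669 and 2564 at 25 mM (log2 change -0.33 ± 0.23, adjusted p = 0.436). Both neighbours, chosen after their values were seen, had overlapping groups. Another 3 of the 15 largest rises were in short frames at background in both 25 mM arrays, for which only a bound can be given. YHL048C-A read 294, 186 and 271 at 36 mM and 24.9 and 17.2 at 25 mM, at least 7.16-fold higher at 36 mM (adjusted p = 5.92e-06). YLR162W read 178, 113 and 113 at 36 mM and 15.6 and 10.02 at 25 mM, at least 3.85-fold higher (adjusted p = 8.54e-06). YNL042W-B read 38.96, 142 and 127 at 36 mM and 8.69 and 0.86 at 25 mM, at least 2.62-fold higher (adjusted p = 0.00244). In each the 36 mM arrays were above the 25 mM arrays. All 4 passed without any 1 of the 5 arrays. Each bound sets the mean at 36 mM against the higher, per array, of the background and the gene's own value at 25 mM.

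Among 22 cyclins and cell cycle regulators 1 was called lower (3.73% over all genes) and 0 higher. It was CLB6, a cyclin of S phase, which read 110.1, 82.6 and 68.6 at 36 mM and 319.9 and 296 at 25 mM (log2 change -1.87 ± 0.25, adjusted p = 0.0017). The 25 mM arrays were the high ones, as the 15 mM arrays read 73.8, 136 and 121. Meiosis and sporulation genes gave 3 of 24 called lower (3.73% over all genes) and 0 higher, with a median of -0.32. SPO13, a regulator of meiotic divisions, read 24.97, 28.7 and 30.9 at 36 mM and 80.3 and 57.7 at 25 mM; it was not above background at 36 mM and at least 2.08-fold lower there (adjusted p = 0.0035). IME2, a kinase of meiosis, read 554, 623 and 569.9 at 36 mM and 896 and 935 at 25 mM (log2 change -0.69 ± 0.15, adjusted p = 0.0211). ZIP1, of the synaptonemal complex, read 156, 234 and 215 at 36 mM and 404 and 306 at 25 mM (log2 change -0.86 ± 0.18, adjusted p = 0.0197). For each of the 3 the 36 mM arrays were the lower ones. SPO1, a phospholipase-like gene of sporulation outside that list, read 105, 158 and 185 at 36 mM and 510.2 and 676 at 25 mM (log2 change -2.04 ± 0.26, adjusted p = 0.00142). IME2 missed the threshold without 36 mM replicate 3 (adjusted p = 0.0506). SPO13, IME2 and ZIP1 missed the threshold without 25 mM replicate 1 (adjusted p = 0.0556, 0.108 and 0.179), and IME2 without replicate 2 (adjusted p = 0.0977). For the meiosis list, without 36 mM replicates 1, 2 and 3 in turn the count was 3, 3 and 3, and without 25 mM replicates 1 and 2 it was 0 and 2.

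The last dose step was also set against the one before it. The step from 25 to 36 mM was tested against the step from 15 to 25 mM, and 70 of 5449 genes (1.28%) were called, 39 with the later step more positive and 31 with it more negative; 530 genes had an unadjusted p under 0.05. In 35 of the 70 the level fell and then rose, and in 25 it rose and then fell, by the sign of the fitted steps. SOV1, a mitochondrial protein gene linked to respiration, read 869, 770.2 and 790.5 at 15 mM, 278 and 288 at 25 mM and 722, 739.9 and 706 at 36 mM (difference of steps 2.99 ± 0.15, adjusted p = 1.13e-06). Both 25 mM arrays lay below all others of the strain. MTR4, the RNA helicase that feeds the nuclear exosome, read 2969.7, 3044 and 2755 at 15 mM, 1022 and 1192 at 25 mM and 3283, 2727 and 2652 at 36 mM (difference of steps 2.91 ± 0.20, adjusted p = 1.78e-05). MNT2, a mannosyltransferase, read 737, 651 and 675 at 15 mM, 199.7 and 209 at 25 mM and 488, 701 and 637 at 36 mM (difference of steps 3.42 ± 0.26, adjusted p = 3.61e-05). In these genes too the 25 mM pair alone was low. PAU7, a cell wall mannoprotein gene of a near-identical family whose values are uncertain, read 1141, 708 and 783 at 15 mM, 206 and 207 at 25 mM and 1133, 728 and 946 at 36 mM (difference of steps 4.33 ± 0.44, adjusted p = 0.000278). Other genes were high only in the 25 mM pair within FT30-3. FHL1, a regulator of ribosomal protein genes, read 544, 547 and 533 at 15 mM, 1587 and 1170.4 at 25 mM and 502, 424 and 336 at 36 mM (difference of steps -2.92 ± 0.29, adjusted p = 0.000278). MNE1, needed for a mitochondrial intron's splicing, read 642, 542 and 583 at 15 mM, 1271 and 1310.1 at 25 mM and 434, 488 and 522 at 36 mM (difference of steps -2.43 ± 0.21, adjusted p = 9.79e-05). HUR1, a frame linked to hydroxyurea resistance, read 228, 280.0 and 253 at 15 mM, 728 and 685 at 25 mM and 219, 300.4 and 249 at 36 mM (difference of steps -2.83 ± 0.31, adjusted p = 0.000497). The 15 and 36 mM arrays of these 3 genes were all below the 25 mM pair. LGE1, a factor for histone ubiquitination, was different: it read 1478, 1478 and 1338 at 15 mM, 1708 and 1493 at 25 mM and 471, 348 and 338 at 36 mM, so that the 36 mM arrays alone were low (difference of steps -2.10 ± 0.23, adjusted p = 0.000513).

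In the parent at 25 mM, SOV1 read 984, 960.4 and 1078 and FHL1 489, 414 and 436, levels unlike those of FT30-3 at the same dose. PAU7 differed from them, since it was low in the parent too, at 155, 107 and 185. Each of the 8 genes named for this test passed it without any 1 of the 5 arrays, with a highest adjusted p of 0.0164. Of the 39 genes with a more positive later step, 28 had both FT30-3 25 mM arrays below all 11 other arrays of the series, and of the 31 with a more negative one, 12 had them above all others. Over all 5449 genes that was so for 128 (2.35%) and 47 (0.863%). The test of steps itself picks genes whose 25 mM level differs from those at 15 and 36 mM, so the counts of 28 and 12 are a description. What sets the FT30-3 pair apart in these genes was not tested. The number of calls was 94, 63 and 69 without 36 mM replicates 1, 2 and 3, and 47 and 41 without 25 mM replicates 1 and 2.

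**Figure D5:**
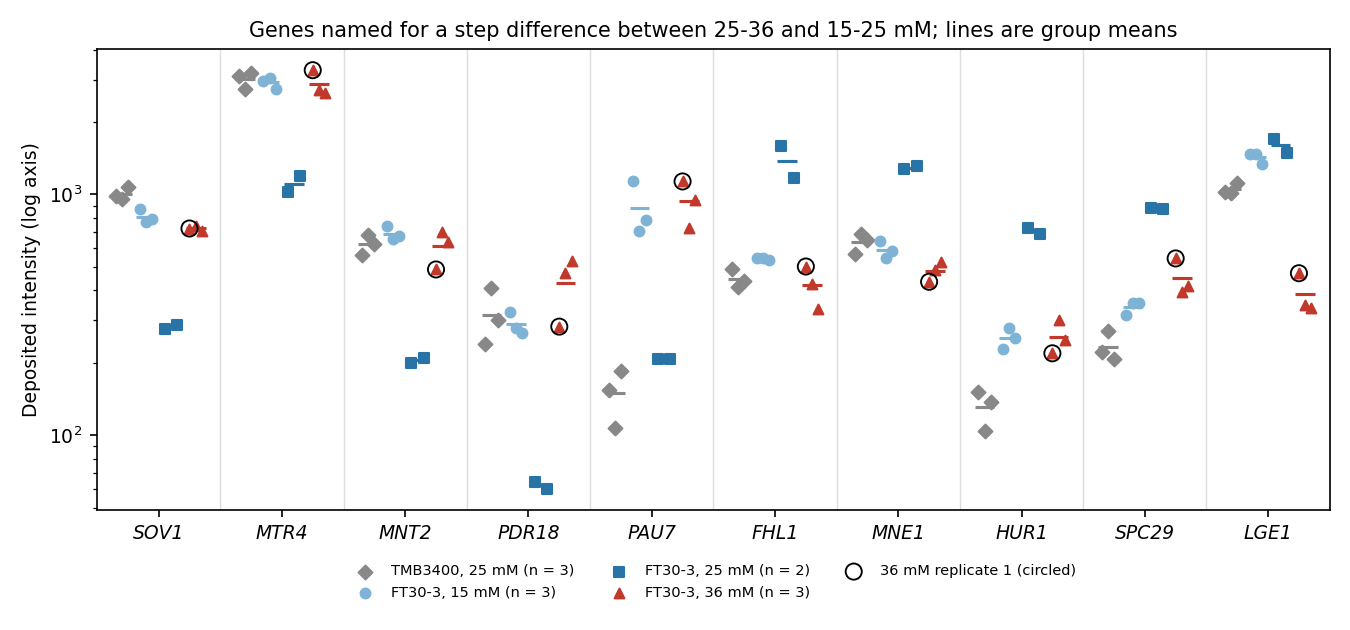
Deposited intensity (log axis) of 10 genes called for a difference between the 25 to 36 mM and the 15 to 25 mM step, in the FT30-3 arrays at 15, 25 and 36 mM and in TMB3400 at 25 mM, with lines at group means and replicate 1 at 36 mM circled. For SOV1, MTR4, MNT2 and PDR18 the FT30-3 25 mM pair lies below every other point, and for FHL1, MNE1, HUR1 and SPC29 above.

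Calls were spread over the genome. The median log2 change of the genes on a chromosome lay between -0.02 and 0.03 over the 16 chromosomes, and 4.73% to 12.2% of the genes on a chromosome were called, the highest share on chromosome I, with 11 of 90 genes. Another 5 lists had 4 higher and 7 lower calls: thiamine, pyridoxine and biotin genes had 1 higher and 3 lower of 19, hypoxic genes 1 higher and 2 lower of 19, cell wall and flocculin genes 2 higher of 32, zinc genes 1 lower of 9 and one-carbon genes 1 lower of 14. Over all genes 3.4% were called higher and 3.73% lower. Without 36 mM replicates 1, 2 and 3 these 5 lists had 5, 3 and 3 higher and 6, 4 and 7 lower calls, and without 25 mM replicates 1 and 2 they had 1 and 1 higher and 1 and 2 lower. Lists with 0 calls by limma were phosphate genes (0 of 23, 3 higher and 4 lower at an unadjusted p under 0.05), the ergosterol pathway (0 of 24, 0 higher and 2 lower), purine synthesis (0 of 18, 2 higher and 0 lower), autophagy and vacuolar proteases (0 of 15, 1 higher and 3 lower, with 1 called lower without 25 mM replicate 2) and copper genes (0 of 8, 1 higher and 0 lower). Mitochondrial chaperones (0 of 7) and those of the endoplasmic reticulum (0 of 10) had 1 lower gene each at that unadjusted p.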

How the data were processed

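RNA of 13 chemostat cultures of S. cerevisiae was reverse-transcribed and labelled with biotin for 1-colour Affymetrix arrays, per the labels' protocols. The authors deposited 1 intensity per probe set and array, not log-transformed. The submitters' processing notes name R 2.7.2, and how probes were summarised, corrected for background or normalized was not given in the sources used here.

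The table held 10928 probe sets, of which 5498 had 1 S. cerevisiae gene in the platform annotation (5449 genes, the brightest probe set standing for each of 47 genes with several) and 1746 an S. pombe gene. Each array's S. cerevisiae median was set to a common value, and log2(intensity + 1), a scale that makes changes of dim genes look smaller, was fitted with 1 mean per strain and dose in limma 3.58.1 (lmFit, eBayes; R 4.3.3), with Benjamini-Hochberg adjustment over probe sets. A gene at or below the S. pombe 95th percentile on all arrays of a group was taken as not above background. Precision is limited by how few arrays there are.

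The members and gene lists were chosen with earlier results of these data known, and no list was tested as a set. Genes named were taken from the 15 highest and 15 lowest changes among calls, up to 6 members of each list by p, and ADH6, ADH7, ARI1, GRE2, GRE3, ZWF1, GND1, ALD6 and PDR5. Not all genes the rule allows are named. Genes of the test of steps were taken from those the rule or its own calls hold, after their values were seen. On simulated data for 36 against 25 mM over 5498 probe sets, the fit recovered 52.2% of genes changed 1.5-fold, 83.6% of those changed 2-fold and 100% of those changed 4-fold, with 4 false calls. The simulated noise was normal, independent between arrays and drawn from each gene's fitted spread, with no outlying array and no trend on gene length. The 4 false calls and the shares recovered therefore do not give the error rates of the real arrays. Alternatives covered normalization, pseudocount, filter, variance model, array weights, arrays fitted, a replicate block, probe set choice and leaving out each array. Removal of a gene-length trend and list counts under each alternative were added after the data were seen. Promoter, protein and genome sequences were not used here.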

Additional observations from a re-analysis of the deposited data

How the results depend on the processing

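Of 296 genes that the naming rule covered, 102 were called, 23 of them in all 16 alternatives, and 0 reversed direction in any; 35 genes not called were called in at least 1 alternative. The count of calls (388) was 74 when the 5 arrays alone were fitted and 192 with the 8 FT30-3 arrays, where fewer arrays estimate the spread, and 105 to 417 when single arrays were left out. It stayed between 316 and 423 under quantile normalization, the values as deposited, a pseudocount of 16, a filter on dim probe sets, a variance trend, array weights, the mean of probe sets, a replicate block and removal of the gene-length trend. The 388 calls shared 70, 180 and 95 genes with the fits of 5 arrays, of 8 arrays and without 25 mM replicate 1, all with the same sign. For the difference of steps (70) the range over single arrays left out was 41 to 94, and other settings gave 47 to 76. For S. pombe probe sets (86) the count was 21 with 5 arrays, 57 with 8 arrays and 14 to 63 with single arrays left out, and 59 to 97 under the other settings with all 1746. The filter on dim probe sets left 63 of them to test, of which 19 were called. The cause of these moves, including the part of the number of arrays, was not tested. Without 1 of the 25 mM arrays, the lone array left is assumed to vary like the other groups. With the replicate number as a block, 316 genes were called, 295 of them shared with the 388. Only numbers 1 and 2 occur in both groups. Deviations from the group means correlated at 0.36 for the arrays numbered 1 and 0.34 for those numbered 2. With 2 arrays at 25 mM their deviations mirror each other, and 36 mM replicate 3 correlated with 25 mM replicate 2 at 0.29. These correlations therefore cannot show pairing, and the arrays share a number without being known to be paired. Under the block 14 of the 102 named calls did not pass, against 65 without 25 mM replicate 1 and 71 with the 5 arrays alone. Precision is limited by the 2 arrays at 25 mM and by replicate 1 at 36 mM, which had an array weight of 0.114.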

Other observations

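Another 3 groups of genes were put together after their values were seen, so their counts describe these arrays and support nothing. Of 12 mitochondrial tRNA synthetases, which charge the tRNAs used inside mitochondria, 5 were called lower and 0 higher, against 3.73% and 3.4% of all genes. All 12 had a log2 change below 0 (median -0.33). Among 26 factors for assembly and translation of cytochrome oxidase, 8 were called lower and 1 higher, against 3.73% and 3.4% of all genes. Their median was -0.35. For the synthetases, without 36 mM replicates 1, 2 and 3 in turn the count was 5, 1 and 2, and without 25 mM replicates 1 and 2 it was 1 and 1. For the oxidase factors, without 36 mM replicates 1, 2 and 3 in turn the count was 8, 4 and 7, and without 25 mM replicates 1 and 2 it was 2 and 3.

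Of 21 genes expressed around the start of the cell cycle, 6 were called higher and 0 lower, against 3.4% and 3.73% of all genes. Their median was 0.30, with 19 above 0 and 2 below. SMC1 was among those below 0, with a log2 change of -0.29 (adjusted p = 0.268). Without 36 mM replicate 1 it was called lower (log2 change -0.44, adjusted p = 0.0397). MCD1, a subunit of cohesin, read 718, 601 and 582 at 36 mM and 247 and 315 at 25 mM (log2 change 1.14 ± 0.20, adjusted p = 0.00641). YOX1, a homeobox repressor of cell cycle genes, read 1374, 717 and 866 at 36 mM and 289 and 324 at 25 mM (log2 change 1.59 ± 0.32, adjusted p = 0.0153). In both genes the 36 mM arrays were all higher, and replicate 1 was the highest. MCD1 and YOX1 missed the threshold without 25 mM replicate 1 (adjusted p = 0.0849 and 0.127), and YOX1 without replicate 2 (adjusted p = 0.058). For these 21 genes, without 36 mM replicates 1, 2 and 3 in turn the count of higher calls was 4, 5 and 4. It was also below 6 without either 25 mM array.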
